A study of Mus musculus with 6 samples.

Results

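Csgalnact1, Csgalnact2, Chsy1, Chsy3 and Chpf encode the glycosyltransferases that start and lengthen the chondroitin chain. They were chosen by name for this role, and each was read through a probe set whose own name carries a RefSeq accession of that gene. All 5 were measured, by 1 probe set each, among 909 named genes in a table of 1246 probe sets. The RNA came from MLE-15, a cell line grown from mouse lung epithelium that SV40 large T antigen made immortal, and was hybridised to 6 Affymetrix arrays. There were 3 control arrays and 3 arrays of cells stimulated with PMA (phorbol 12-myristate 13-acetate, an activator of protein kinase C), at 10 nM for 24 h per the series design text. All 6 arrays are of this 1 line, and no label names separate cultures. P-values therefore reflect the spread among these 6 samples alone, and that spread may be technical. Each group holds replicate numbers 1, 2 and 3, and the titles of numbers 2 and 3 carry a letter where those of number 1 carry none. The study's question was whether transferases of sialic acid and sulfate, and mucins, are present and respond to PMA. The chondroitin enzymes supply the chain on which several of those sulfotransferases act.

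Chondroitin sulfate is a long unbranched glycosaminoglycan of alternating N-acetylgalactosamine and glucuronic acid, carried by proteoglycans of the cell surface and the extracellular matrix. It is built in the Golgi on a short sugar linker that also serves heparan sulfate. The first N-acetylgalactosamine commits the linker to chondroitin, and the chain is then polymerized, sulfated and, in dermatan sulfate, partly epimerized. In the lung these chains are found on matrix and cell surface proteoglycans around the epithelium and vessels.

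Values are RMA values on the log2 scale, so 1 unit is a doubling of the measured signal. A gene was called where limma's Benjamini-Hochberg adjusted p over all 1246 probe sets was under 0.05. The medians of the 6 arrays lay at 5.64 to 5.71, and their small number limits the precision. No background values were at hand, so nothing is said of presence or absence, and levels of different genes were not ranked. Of 14 listed lung epithelial markers only Sftpa1 and Sftpd, both surfactant proteins, were measured. Sftpa1 lay between 3.29 and 3.89 and Sftpd between 5.28 and 5.50 over the 6 arrays, and without background values these levels do not bear on the label. Cdh1, Epcam, the keratins and Nkx2-1 were not analysed here, so the epithelial label rests on the submitters.

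Promoter sequence was at hand for 3 of the 5 genes, and it is shown because PMA is a phorbol ester and the response elements of such esters and of cyclic AMP have known letters. Each line gives the 250 bases before the annotated RefSeq start, 5′ to 3′. Where a gene had several starts the outermost is shown. Capitals mark matches to TGANTCA (a loose form of the AP-1 or phorbol ester response element, which itself reads TGACTCA or TGAGTCA), TGACGTCA (the cyclic AMP response element) and GGGCGG (the GC box), searched on both strands, with a minus-strand GC box reading CCGCCC. No 2 of these matches overlap.
Csgalnact2 (GRCm38.p6, chr6:118139141-118139390, minus strand): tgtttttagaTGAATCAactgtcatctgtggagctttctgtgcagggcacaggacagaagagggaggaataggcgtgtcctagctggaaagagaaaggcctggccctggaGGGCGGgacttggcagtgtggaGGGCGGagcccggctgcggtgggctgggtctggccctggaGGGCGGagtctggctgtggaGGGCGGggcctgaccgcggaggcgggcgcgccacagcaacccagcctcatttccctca
Chsy1 (GRCm38.p6, chr7:66109242-66109491, plus strand): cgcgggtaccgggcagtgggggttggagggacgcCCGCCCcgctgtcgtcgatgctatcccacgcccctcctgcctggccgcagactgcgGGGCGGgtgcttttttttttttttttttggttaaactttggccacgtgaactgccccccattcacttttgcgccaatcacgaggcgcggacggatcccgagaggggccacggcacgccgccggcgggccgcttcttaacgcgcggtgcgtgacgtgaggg
Chpf (GRCm38.p6, chr1:75479472-75479721, minus strand): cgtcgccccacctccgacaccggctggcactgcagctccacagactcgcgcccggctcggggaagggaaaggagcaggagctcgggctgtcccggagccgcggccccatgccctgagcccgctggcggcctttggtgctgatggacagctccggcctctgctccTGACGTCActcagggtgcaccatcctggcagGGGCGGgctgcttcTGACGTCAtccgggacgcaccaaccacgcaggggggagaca

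The Csgalnact2 window held 1 TGANTCA match, 240 bases before the start, and 4 GC boxes. That match reads TGAATCA, so it is not the AP-1 element in its strict form. The Chsy1 window held 2 GC boxes and neither response element. The Chpf window held 2 TGACGTCA matches, 86 and 41 bases before the start, and 1 GC box. Among 32851 mouse windows of the same length, 6.75% held TGANTCA, 1.55% held TGACGTCA and 32.7% held GGGCGG. The 3 windows were 64% to 70.4% G or C, against a median of 52.4% over all windows. A match describes letters only and shows no binding.

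All 5 enzymes had a slightly higher mean with PMA, and none passed the test. Over all probe sets limma called 0 of 1246 (0%) with PMA, and 4 (0.321%) had an unadjusted p under 0.05. Blocking on the replicate number also gave 0 calls (0%), and 42 probe sets (3.37%) then had an unadjusted p under 0.05. Of all probe sets 651 had a higher mean in the PMA arrays, with a median difference of 0.0033 log2 units. The median over the 5 enzymes was 0.093. The 5 kept a higher mean with PMA when the arrays were centred on their medians or quantile-normalized again.

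Csgalnact1 and Csgalnact2 encode the N-acetylgalactosaminyltransferases that add the first N-acetylgalactosamine to the linker. Csgalnact1 (NM_172753.3_psr1_at) read 5.62, 6.61 and 6.69 in controls 1, 2 and 3 and 5.89, 7.01 and 6.65 in PMA 1, 2 and 3. Number 1 was low in both groups, and the control and PMA ranges overlapped. The means were 6.31 ± 0.59 (SD, n = 3) and 6.52 ± 0.57 (SD, n = 3), a difference of 0.21 log2 units (SE 0.41; limma adjusted p = 0.999). Within the numbers it differed by 0.27, 0.40 and -0.040, so number 3 did not share the direction. With the number as a block the SE was 0.089 and the 95% interval ran from 0.0073 to 0.41. The unadjusted p was 0.0437 in the blocked limma fit and the adjusted p was 0.992.

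Csgalnact2 (NM_030165.3_psr1_at) read 7.79, 7.10 and 7.42 in the controls and 7.94, 7.13 and 7.42 in the PMA arrays. Each PMA array stood close to the control of its own number, and the order of the numbers was 1, 3, 2 in both groups. The means were 7.44 ± 0.34 and 7.49 ± 0.41, a difference of 0.059 (SE 0.27; limma adjusted p = 0.999). Within the numbers it differed by 0.15, 0.027 and -0.0014. The blocked interval ran from -0.094 to 0.21.

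Chsy1 and Chsy3 encode chondroitin synthases, which carry both the glucuronic acid and the N-acetylgalactosamine transferase activity of chain growth. Chsy1 (NM_001081163.1_psr1_at) read 9.31, 9.10 and 9.39 in the controls and 9.53, 9.23 and 9.33 in the PMA arrays. These 6 values spanned 0.42 log2 units, the narrowest span of the 5 enzymes. The means were 9.27 ± 0.15 and 9.36 ± 0.15, a difference of 0.093 (SE 0.12; limma adjusted p = 0.999), made up of 0.21, 0.12 and -0.060. The blocked interval ran from -0.076 to 0.26.

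Chsy3 (NM_001081328.1_psr1_at) read 5.22, 6.64 and 6.76 in the controls and 5.35, 6.999 and 6.85 in the PMA arrays. Number 1 was the lowest array of each group, and the 6 values spanned 1.78 log2 units, the widest of the 5. The means were 6.20 ± 0.85 and 6.40 ± 0.91, a difference of 0.20 (SE 0.62; limma adjusted p = 0.999). All 3 numbers had a higher PMA value, by 0.13, 0.36 and 0.098. Of all probe sets 10.4% were above 0 in all 3 numbers. The blocked interval ran from 0.027 to 0.37, with an unadjusted p of 0.0277 and an adjusted p of 0.992 by limma.

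Chpf encodes the chondroitin polymerizing factor, which works with the synthases in chain elongation. Its probe set (NM_001001566.1_psr1_at) read 9.08, 8.56 and 8.47 in the controls and 9.09, 8.65 and 8.50 in the PMA arrays. Here number 1 was the high array of each group. The means were 8.70 ± 0.33 and 8.75 ± 0.31, a difference of 0.045 (SE 0.23; limma adjusted p = 0.999). Like Chsy3 it was higher with PMA in all 3 numbers, but by 0.017, 0.084 and 0.033. The blocked interval ran from -0.10 to 0.19.

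**Figure D1:**
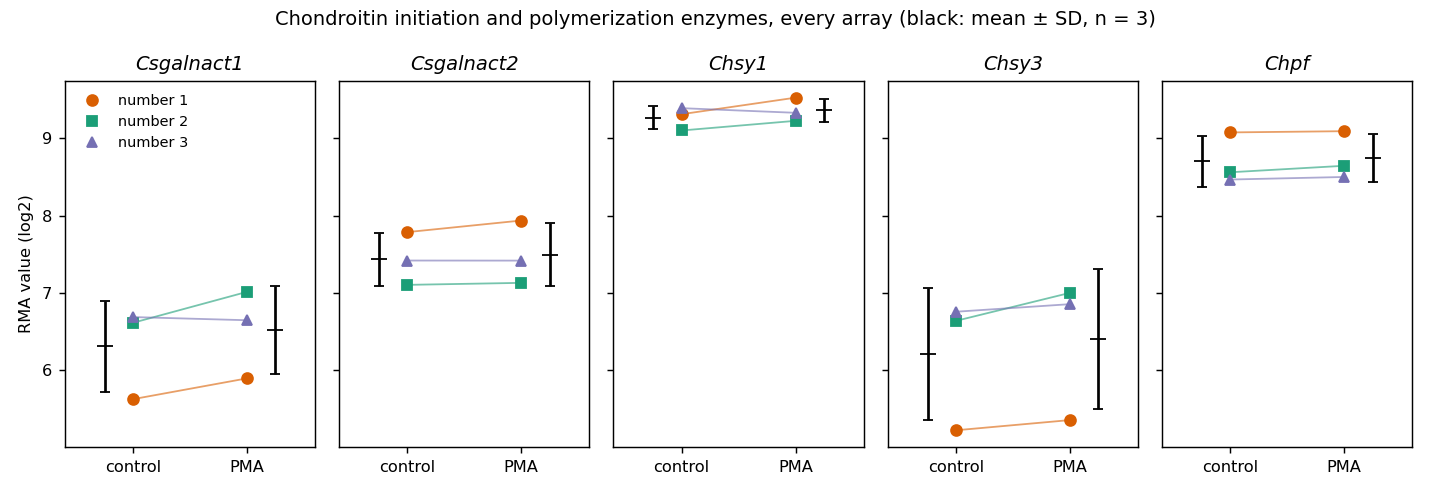
RMA values (log2) of the 5 enzymes on every array, with the control and PMA array of 1 replicate number joined by a line and the mean ± SD of each group in black (n = 3). Number 1 lies below the other numbers for Csgalnact1 and Chsy3 and above them for Csgalnact2 and Chpf. The lines from control to PMA change by -0.060 to 0.40 log2 units. Levels of different panels do not rank the genes.

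By number, 5 of the 5 enzymes were higher with PMA in number 1, 5 in number 2 and 2 in number 3. Over all probe sets 48.9%, 50.4% and 46.7% were. The enzymes' differences ran from 0.017 to 0.27 in number 1, from 0.027 to 0.40 in number 2 and from -0.060 to 0.098 in number 3. With the block, all 5 intervals lay within 0.58 log2 units of 0, as did 1242 of the 1246. Without the block 1 of the 5, Chsy1, did, and 3 lay within 1 log2 unit. Whether the PMA difference in number 1 departed from that in numbers 2 and 3 was tested with an interaction term. None of the 5 passed by limma. The estimates were 0.089 for Csgalnact1, 0.14 for Csgalnact2, 0.18 for Chsy1, -0.098 for Chsy3 and -0.042 for Chpf, with adjusted p from 0.843 to 0.962. Of all probe sets 1 (0.0803%) was called.

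**Figure D2:**
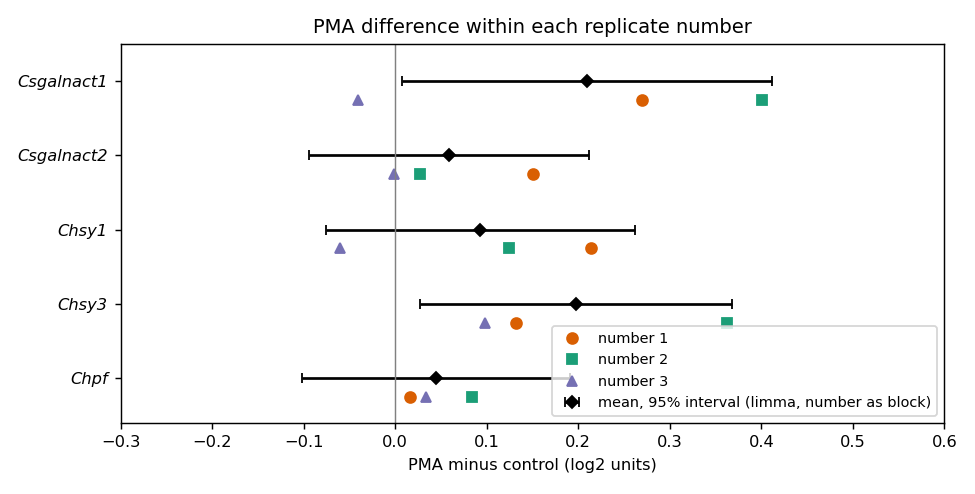
PMA minus control in log2 units for the 5 enzymes: coloured points are the difference within each replicate number, black diamonds the mean with limma's 95% interval, number as a block. The intervals of Csgalnact1 and Chsy3 lie just above 0, from 0.0073 and 0.027, and those of the other enzymes cross it; none passed the adjustment over all probe sets.

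The arrays of number 1 stood apart from those of numbers 2 and 3, and the 5 enzymes divided on that line: Csgalnact1 and Chsy3 were lower in number 1, Csgalnact2 and Chpf were higher, and Chsy1 did not pass the test. This comparison took the 2 arrays of number 1 against the 4 of numbers 2 and 3, with PMA as a term, and was first made after the data had been seen. It compares 1 pair of arrays with 2 pairs, so its p-values speak of these arrays only. Over all probe sets limma called 41.7%, with 27.5% higher and 14.1% lower in number 1. The arrays of number 1 lay outside the range of the other 4 for 4 of the 5 enzymes, and for 55.9% of all probe sets. A call alone therefore sets no enzyme apart, and the sizes and directions follow.

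Chsy3 differed most. Its mean was 5.29 in number 1 against 6.81 ± 0.15 (SD, 4 arrays) in the others, so number 1 stood at -1.53 log2 units (SE 0.076), or 2.88-fold lower (limma adjusted p = 6.54e-08). The difference was -1.48 in the control arrays and -1.57 in the PMA arrays. It ranked 59 among the 1246 probe sets by absolute size. Csgalnact1 averaged 5.76 and 6.74 ± 0.18, a difference of -0.98 (SE 0.098), or 1.97-fold lower (limma adjusted p = 1.47e-05). It was -1.03 in control and -0.94 in PMA arrays and ranked 120.

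Csgalnact2 averaged 7.86 in number 1 and 7.27 ± 0.17 in the other arrays, a difference of 0.59 (SE 0.11), or 1.51-fold higher (limma adjusted p = 0.00100). It was 0.53 in control and 0.66 in PMA arrays. Its direction was opposite to that of Csgalnact1, the other enzyme of chain initiation, and both passed. Chpf averaged 9.09 and 8.54 ± 0.078, a difference of 0.54 (SE 0.073), or 1.45-fold higher (limma adjusted p = 1.25e-04), with 0.56 in control and 0.52 in PMA arrays. Chsy1 averaged 9.42 and 9.26 ± 0.13, a difference of 0.16 (SE 0.092; limma adjusted p = 0.204) with a 95% interval from -0.048 to 0.36, and its number 1 arrays overlapped the rest. Quantile normalization again turned the Chsy1 difference to -0.073. The other 4 kept their direction and passed in all 14 alternatives that gave a test. The 2 synthases thus had unlike values on the same arrays, -1.53 for Chsy3 and 0.16 for Chsy1, with intervals of -1.69 to -1.36 and -0.048 to 0.36 that do not meet.

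**Figure D3:**
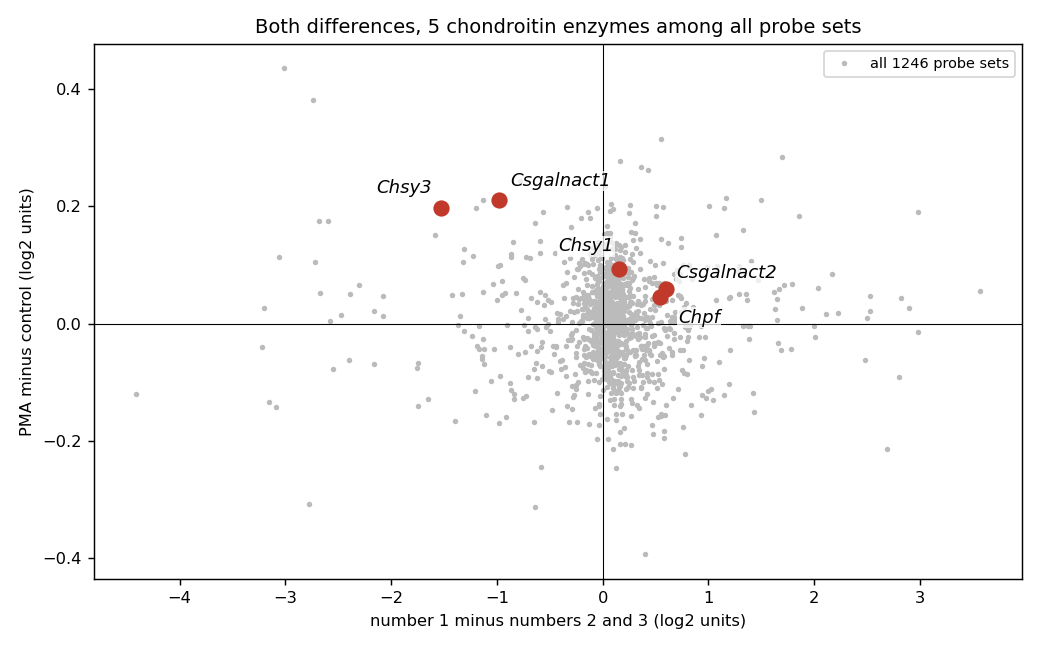
Each grey point is 1 of the 1246 probe sets, with the number 1 minus numbers 2 and 3 difference on the x axis and the PMA minus control difference on the y axis (log2 units, different scales); red points are the 5 enzymes. Chsy3 and Csgalnact1 lie to the left at -1.53 and -0.98, Csgalnact2 and Chpf to the right at 0.59 and 0.54, and all 5 lie within 0.21 of 0 on the y axis.

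Numbers 2 and 3 differed far less. With PMA and the number as terms, a comparison added after the values were seen, limma called 0 of 1246 (0%) between number 2 and number 3, with 61 at an unadjusted p under 0.05. Csgalnact2 showed the largest difference of the 5, -0.30 (SE 0.082; unadjusted p = 0.00554 and adjusted p = 0.953 by limma), with -0.32 in control and -0.29 in PMA arrays. Chsy1 was next at -0.20 (SE 0.091), made up of -0.29 and -0.10. Csgalnact1 and Chsy3 changed sign between the groups, at -0.073 and 0.37 for Csgalnact1 and -0.12 and 0.15 for Chsy3. Ordered by level, Csgalnact1 and Chsy3 therefore stood lowest in number 1, with numbers 2 and 3 not told apart beyond their spread. Csgalnact2 and Chpf stood highest in number 1, again with numbers 2 and 3 not told apart by the test.

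Genes with the nearest profile were sought among the 904 other named genes as the smallest root mean square difference over the 6 arrays, each profile centred on its own mean. The smallest distances lie below the median by construction. Over 6 arrays a gene can be near merely through a like difference in number 1. Joint regulation was not tested. For Chpf they were St6galnac6 at 0.021 log2 units, Hs3st6 at 0.035 and Pkd1 at 0.045, against a median of 0.24 over all genes compared. St6galnac6 is a sialyltransferase of gangliosides and Hs3st6 a heparan sulfate sulfotransferase. For Csgalnact1 they were Il1rl1 at 0.082, the chemokine Cxcl1 at 0.12 and the glycolipid enzyme B3gnt5 at 0.12, against a median of 0.53. For Chsy3 they were the hexosamine pathway enzyme Gfpt2 at 0.12, Pecam1 at 0.13 and the Golgi protein Golm1 at 0.14, against 0.78. For Csgalnact2 they were Alg13 at 0.074, Gpi1 at 0.078 and the chondroitin-degrading sulfatase Galns at 0.10, against 0.29. For Chsy1 they were Hmgn2 at 0.057, Hnrnpul2 at 0.060 and Ccl11 at 0.066, against 0.17, a smaller contrast since this enzyme varied little.

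The rest of the chondroitin pathway was read by role. Chpf2, the remaining gene of the polymerase family, was not among the genes named here. In the pathway lists below limma called 0 genes with PMA, with and without the block. No gene of these lists had an unadjusted p under 0.05 without the block, and with it B3gat2, Chst7, Cd44 and Tgfbr3 did. The linker enzymes build the shared sugar bridge to the core protein, and 6 of 9 were measured. With PMA 3 were higher and 3 lower, led by B3gat2 at 0.19 and B3galt6 at 0.13, and the median difference was -0.031. Counts for number 1 here and in the next lists stand beside 27.5% higher and 14.1% lower over all probe sets. In number 1 only B4galt7, which adds the first galactose, was called, at -0.26 (SE 0.078; limma adjusted p = 0.0209). That call was lost without control 3 (adjusted p = 0.0578), without PMA 1 (adjusted p = 0.259) and against number 2 only (adjusted p = 0.134).

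The enzymes that modify the chain after polymerization were higher in number 1. Of 10 listed sulfotransferases and epimerases of chondroitin and dermatan, 8 were measured, and limma called 8 higher and 0 lower, against 6 higher with centred arrays and 7 after quantile normalization again. Ust, which sulfates uronic acid, led at 1.71. Chst14, the dermatan sulfotransferase, read 8.22 and 8.14 in number 1 and between 7.20 and 7.23 in the other arrays, a difference of 0.97 (SE 0.066; limma adjusted p = 7.22e-07). Chst12, a chondroitin sulfotransferase, read 8.59 and 8.39 against 7.61 to 7.74, a difference of 0.82 (SE 0.077). Chst7 at 0.58, Dsel, a dermatan sulfate epimerase, at 0.56 and Chst11 at 0.37 were also higher in number 1. In the other arrays they read 4.31 to 4.52, 4.36 to 4.54 and 4.31 to 4.40. These values are near the lower quartiles of the arrays, 4.32 to 4.43. The median of the 8 measured genes was 0.57, that of the 5 chain enzymes 0.16 and that of all probe sets 0.079. With PMA 1 had a higher mean and 7 a lower one, led by Chst7 at -0.18 and Dsel at -0.10, with a median of -0.061.

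The enzymes of heparan sulfate polymerization and the epimerase Glce act on chains begun on the same linker, and all 6 listed were measured. In number 1 limma called 4 higher and 0 lower. Ext1, a heparan sulfate copolymerase, read 9.29 and 9.28 in number 1 and between 7.23 and 7.31 in the other arrays, a difference of 2.01 (SE 0.066; limma adjusted p = 3.26e-09). Extl3, which starts heparan sulfate, differed by 0.66, Ext2 by 0.63 and Extl2 by 0.38, the last with an adjusted p of 0.0686 by limma without control 1. With PMA the 2 of largest difference were Ext2 at -0.042 and Extl3 at 0.041.

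Of 9 genes that supply sugar and sulfate donors, 6 were measured. In number 1 limma called 0 higher and 2 lower, or 3 lower with centred arrays and after quantile normalization again. Slc35d1 carries UDP-glucuronic acid and UDP-N-acetylgalactosamine, both substrates of chondroitin synthesis, across membranes of the secretory pathway. It read 6.07 and 5.83 in number 1 and between 7.01 and 7.20 in the other arrays, a difference of -1.14 (SE 0.086; limma adjusted p = 1.67e-06). Uxs1, which makes UDP-xylose for the linker, differed by -0.43. The PMA differences of these 2 genes were the largest of the list, at -0.056 for Slc35d1 and -0.12 for Uxs1.

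The core proteins that can carry chondroitin sulfate included the widest differences of the pathway, in both directions. Of 20 listed, 17 were measured, and limma called 6 higher and 2 lower in number 1, against 5 and 2 with either other scaling. That is a share near the 41.7% of all probe sets, so the count says little of core proteins as a class. Tgfbr3 (betaglycan) at 2.98 and Cspg4 (NG2) at 2.90 were higher, followed by Vcan at 1.14 and Smc3 at 0.63. Acan, the large aggregating proteoglycan aggrecan, read 6.35 and 6.44 in number 1 and between 8.84 and 9.06 in the other arrays, a difference of -2.57 (SE 0.079; limma adjusted p = 2.47e-09). Dcn, the small matrix proteoglycan decorin, read 7.96 and 7.38 against 9.62 to 10.56, a difference of -2.31 (SE 0.23). With PMA 12 had a higher and 5 a lower mean, or 11 and 6 with either other scaling. The hyaluronan receptor Cd44 at 0.23 and Vcan at 0.20 led, and the median was 0.026.

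Of 13 listed genes of chondroitin breakdown 7 were measured, and limma called 4 higher and 0 lower in number 1, or 3 with either other scaling. Galns differed by 0.68, Arsb, which removes sulfate from N-acetylgalactosamine, by 0.62, and Idua by 0.32. Idua did not pass without control 1 (adjusted p = 0.161 by limma). Hexa, at 0.26, passed in 3 of 14 alternatives. With PMA 5 had a higher and 2 a lower mean, or 4 and 3 with centred arrays, led by Hyal1 at 0.20 and Arsb at 0.14.

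**Figure D4:**
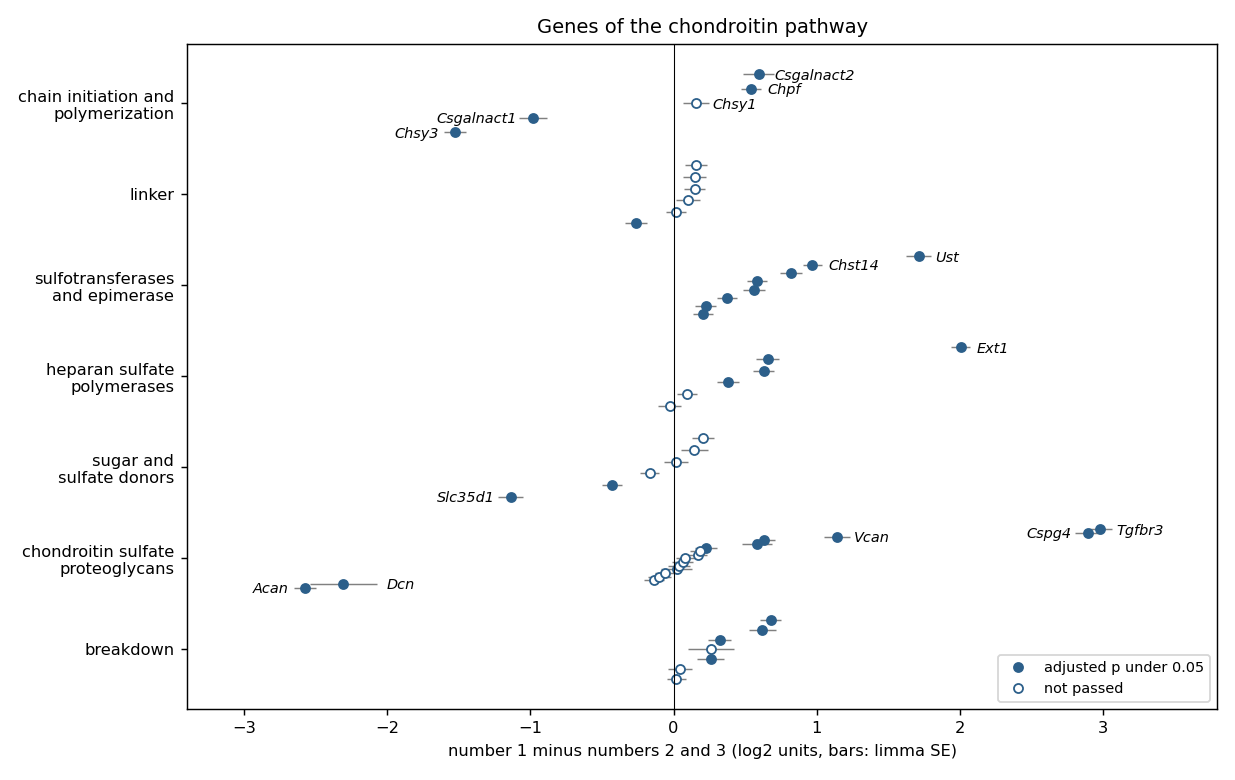
Number 1 minus numbers 2 and 3 (log2 units, bars are limma's SE) for every measured gene of the chondroitin pathway, grouped by role; filled points passed the adjusted p of 0.05. The 5 chain enzymes fall on both sides of 0, from -1.53 to 0.59, while all 8 measured genes of the sulfotransferase and epimerase list lie above it, from 0.21 to 1.71, 6 or 7 of them passing under the other scalings.

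Markers of cell types were read on the same arrays. Of 16 leukocyte markers 8 were measured and limma called 0 higher and 1, Mrc1, lower, and the mean level of the 8 ran from 4.74 to 4.91 in number 1 and from 5.08 to 5.16 in the other arrays. Of 13 fibroblast and endothelial markers 6 were measured, with mean levels of 5.77 to 5.85 against 6.17 to 6.27. That mean joins genes of opposite direction, so it describes neither cell type. Pdgfrb was higher in number 1 by 0.78, and Pdgfra, at 0.20, did not pass. Selp was higher by 0.39, while Pecam1 at -1.37, Sele at -1.13 and Vcam1 at -1.31 were lower. Of the 2 measured markers of lung epithelium, the line's own type, Sftpa1 was higher in number 1 and Sftpd did not pass. Their mean levels were 4.65 to 4.70 against 4.29 to 4.44. Sftpa1, at 3.29 to 3.89, lay below the lower quartiles of the arrays, 4.32 to 4.43. Ptprc, Col1a1, Cdh5 and Vwf were not analysed here. In bulk RNA fewer cells of a type and less RNA per cell cannot be told apart. The part of these markers in the differences of the chondroitin enzymes was not tested. Of 23 listed phorbol ester response genes 8 were measured, 4 higher and 4 lower with PMA. Limma called 0 of them, with 0 at an unadjusted p under 0.05 and 1, Junb, with the block. Junb was lower with PMA in all 3 numbers, at -0.23, -0.16 and -0.092. Its unadjusted p was 0.0399 and its adjusted p 0.992 in the blocked limma fit.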

How the data were processed

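Trizol RNA, 0.5 µg per sample, was turned into biotinylated cRNA, per the labels' protocols. The authors made the deposited log2 values with RMA (background correction, quantile normalization, summary per probe set), per the submitters' processing notes; its version, the array's name and any filter were not found in these sources. RMA would hide a uniform shift of all transcripts. Probe sets were named by matching the RefSeq accession in their names, without version, to the RefSeq table of GRCm38.p6 (963 named, 283 not); of several probe sets per gene the one with the highest mean was used. Promoters are from RefSeq, GRCm38.p6.

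All 1246 probe sets were fitted with lmFit and eBayes of limma 3.58.1 (R 4.3.3); SE is the moderated standard error. The members, lists and the rule for naming genes were chosen with earlier results of these data known. That rule named every chain enzyme, in each list the called genes of largest difference between number 1 and the rest (up to 4, or 6 for linker enzymes, sulfotransferases and proteoglycans) and the 2 of largest PMA difference. Deviations from the group mean correlated at 0.956, 0.815 and 0.912 between arrays of the same number, all over 0.1, so the number was treated as pairing the arrays and used as a block beside the unblocked fit; the labels do not say what it stands for. These correlations are tied to each other, since deviations within a group sum to 0 and number 1 stood apart. Between the groups, number 2 minus number 3 correlated at 0.041, so a pairing of number 2 and of number 3 was not shown. The procedure was tested on simulated data in which 1046 of 1246 probe sets were unchanged and the rest shifted, 50 at each of 4 sizes. At a shift of 0.25 log2 units the blocked PMA comparison called 68%, the unblocked 0% and the comparison of number 1 64%; at 0.5 they called 98%, 28% and 100%. Noise was drawn independently for each array at the spread of the blocked fit. In the simulation of number 1 the numbers differed only by the added shifts. Shifts of 1 and 2 log2 units were included, which eases the adjusted threshold, while the PMA comparison of the data called 0. These rates therefore need not hold for the data. Shifts under 0.25 log2 units, such as the mean PMA differences of the 5 enzymes, were not simulated. Alternatives were other scalings, a filter on low values, an intensity trend, other terms and leaving out arrays.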

Additional observations from a re-analysis of the deposited data

Results flagged for a closer look

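The PMA difference in number 1 departed from that in numbers 2 and 3 for 1 probe set, uc009kma.1_psr1_at, which has no gene name here and is no chondroitin enzyme. The interaction estimate was 1.21 log2 units (SE 0.13; limma adjusted p = 0.0360). Within the numbers it differed by 1.24, 0.088 and -0.022.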

How the results depend on the processing

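The PMA comparison gave 0 calls under every alternative run. Leaving out 1 array unbalances the numbers between the groups, and the PMA difference then ran from -0.13 to 0.52 for Csgalnact1 (below 0 without control 1 or PMA 2), -0.16 to 0.24 for Csgalnact2 (below 0 without control 2 or PMA 1), 0.0095 to 0.16 for Chsy1, -0.29 to 0.72 for Chsy3 (below 0 without control 1, PMA 2 or PMA 3) and -0.13 to 0.23 for Chpf (below 0 without control 2, control 3 or PMA 1). With number 1 left out of both groups, with the replicate block (0.21, 0.059, 0.093, 0.20 and 0.045 in the order above) and under the other scalings all 5 stayed above 0. The block changed no call. Of the pathway genes, leaving out 1 array gave -0.36 to 0.030 for Chst7, -0.27 to 0.11 for Dsel, -0.24 to 0.18 for Ext2, -0.15 to 0.29 for Extl3, -0.24 to 0.050 for Uxs1, -0.39 to 0.37 for Slc35d1, -0.22 to 0.54 for Vcan and -0.035 to 0.38 for Arsb. Leaving number 1 out of both groups took Slc35d1 to 0.033.

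Between number 1 and the rest the count of calls ran from 403 to 543, against 519 with all arrays and the deposited values. Of the calls 66.1% were higher in number 1, against 61.1% with centred arrays and 54.5% after quantile normalization again (278 higher, 232 lower). Chsy1 passed without control 3 (0.23, limma adjusted p = 0.0475), against adjusted p up to 0.763 in the other alternatives, and was -0.073 after quantile normalization again; leaving out 1 array gave 0.067 to 0.25. Without 1 array Chsy3 ran from -1.57 to -1.48, Csgalnact1 from -1.07 to -0.91, Csgalnact2 from 0.52 to 0.67 and Chpf from 0.51 to 0.58.

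The interaction count of 1 became 0 after quantile normalization again and 0 with an intensity trend, and ran from 2 to 18 without 1 array of number 2 or 3. For Chpf the interaction was 0.059 after quantile normalization again. Leaving out 1 array gave interactions of -0.095 to 0.27 for Csgalnact1, -0.020 to 0.30 for Csgalnact2 and -0.11 to 0.030 for Chpf. With 1 array of number 1 left out, the remaining one is assumed to vary like the others. The causes were not tested. Signal over background is unknown here, so the smallest change of a dim transcript that could be seen is not known.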
